A study of Mus musculus with 8 samples.

Results

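The response of wild-type (WT) astrocytes to transforming growth factor β (TGF-β) was read from 4 of the 8 libraries of the series: 2 WT control and 2 WT TGF-β libraries, taken by their labels. The series asks how RGC-32, the protein of the gene Rgcc, shapes the astrocyte transcriptome, and its other 4 libraries are from RGC-32 knockout (KO) astrocytes with and without TGF-β. All cells were primary astrocytes from brains of C57BL/6 mice at postnatal day 1, grown in serum as a monolayer and shaken overnight to take off neurons and oligodendrocyte precursors, with the meninges removed first. Both WT groups were serum-starved overnight, and the WT TGF-β group then received TGF-β at 10 ng/ml for 24 h, while the WT control group received none. The KO libraries entered the model to share the estimate of the spread, and their own TGF-β contrast is given beside a few results. They are the same kind of culture, without a working Rgcc gene. Each group had 2 biological replicates, and the labels do not say whether a replicate came from 1 pup or from a pool. The model is a neonatal monolayer in culture at 1 dose and 1 time.

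TGF-β is held in the matrix as a latent complex with LTBP proteins and is freed by integrins, proteases and thrombospondin. It then joins the type II receptor to the type I receptor, which phosphorylates SMAD2 and SMAD3. These enter the nucleus with SMAD4 and act beside other factors such as AP-1, while inhibitors including SMAD7 and PMEPA1 close the loop. In the injured brain the cytokine is best known for scar-forming astrocytes that lay down collagens and chondroitin sulfate proteoglycans.

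Total counts on genes were between 14920561 and 18956038 in the 4 WT libraries. Expression is given as CPM, a gene's counts per 1000000 counts of the TMM-scaled library, with the value of replicate 1 before that of replicate 2. A fold change is the log2 ratio of WT TGF-β to WT control with its standard error (SE), from edgeR's quasi-likelihood model, and p-values were adjusted by the Benjamini-Hochberg method over the 13509 genes tested. A gene was called raised or lowered at a log2 fold change of at least 0.6 in either direction, which is 1.5-fold, with an adjusted p under 0.05. "Rose" and "fell" are used of such genes, and "by" a value then means on the log2 scale, as does "log2" before a value in parentheses. The first principal component of the 8 libraries held 68.78% of the variance and separated TGF-β from control libraries. The second held 12.05% and set control replicate 1 with TGF-β replicate 2, and control replicate 2 with TGF-β replicate 1, in both genotypes. Genes of the lists that follow this second pattern by at least 2-fold in both WT groups are named beside their lists.

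The label "astrocyte" was checked against marker genes. All 10 astrocyte markers were measured, and Gfap, the glial filament protein, stood at 1548 and 1771 CPM in WT control and 1398 and 1196 CPM in WT TGF-β. The water channel gene Aqp4 had 1076 and 986 CPM in WT control. Defining genes of other cell types were present too. The microglial complement gene C1qa had 238 and 196 CPM in WT control and 202 and 156 CPM in WT TGF-β, and the summed level of 15 microglial markers was 2251 and 1826 CPM in WT control and 2196 and 1660 CPM in WT TGF-β. The synaptic vesicle gene Syt1 stood at 4.06 and 4.24 CPM in control, and of 4 neuronal markers Tubb3, a tubulin that other cells can express, rose (log2 0.98). Sox10, which defines the oligodendrocyte lineage, was near 0 at 0.645 and 0.119 CPM in control and 0.608 and 0.639 CPM after TGF-β. Of 6 endothelial markers Cdh5 fell (log2 -1.09) and Flt1 rose (log2 1.13). The meningeal fibroblast markers included the collagen genes Col1a1 and Col3a1, with Col1a1 at 1606 and 1786 CPM in WT control. Foxj1, which marks cells with motile cilia, had 295 and 342 CPM. These are bulk libraries, so fewer cells of a type and less RNA per cell cannot be told apart in any result given here.

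After TGF-β, 1043 genes rose, which is 7.72% of those tested, and 763 fell, which is 5.65%. Together they were 13.4% of the genes tested. At least 2-fold changes were more often upward, with 530 genes raised and 276 lowered, and at least 4-fold changes more so, with 140 raised and 27 lowered. Raised genes had a median level of 32.5 CPM, close to the 33.3 CPM of all genes tested, while lowered genes had a median of 8.90 CPM. The balance of directions depended on the scaling: 57.75% of calls were upward with TMM and 44.82% with upper quartile scaling, which gave 857 raised and 1055 lowered genes and moved the median of all genes from -0.0048 to -0.09. Of the raised genes, 985 were annotated as protein coding, as were 721 of the lowered genes. The 69 gene lists used to describe the response held 277 of the raised and 101 of the lowered genes.

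The RGC-32 KO libraries gave the same contrast in other samples. They share no sample with the WT libraries, and 1038 of the 1043 genes raised in WT had a positive fold change there, with 761 (73%) past the same threshold, against 6.62% of all genes tested. Of the 763 lowered genes, 758 were below 0 in KO and 481 (63%) passed the threshold, against 4.93% of all genes tested. None of the 1806 genes was past the threshold in the opposite direction. All were fitted in 1 model with a shared spread. Deviations of same-numbered WT and KO libraries from their group means correlated across genes, at 0.491 for the controls and 0.253 for the TGF-β libraries, so replicates of WT and KO with 1 number differed from the other number in like ways. A further edgeR test asked whether the TGF-β response differed between the genotypes. Of the 13509 genes tested, 0 had an adjusted p under 0.05 there and 381 an unadjusted p under 0.05. Rgcc itself rose in WT, from 5.16 and 5.61 to 11.9 and 23.1 CPM, with a log2 fold change of 1.69 (SE 0.44) and an adjusted p of 0.0221. This call was lost with DESeq2 on all 8 libraries (adjusted p 0.0521) and without either control library or WT TGF-β replicate 2, where the log2 fold change was 1.12 in edgeR with an adjusted p of 0.141.

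**Figure D1:**
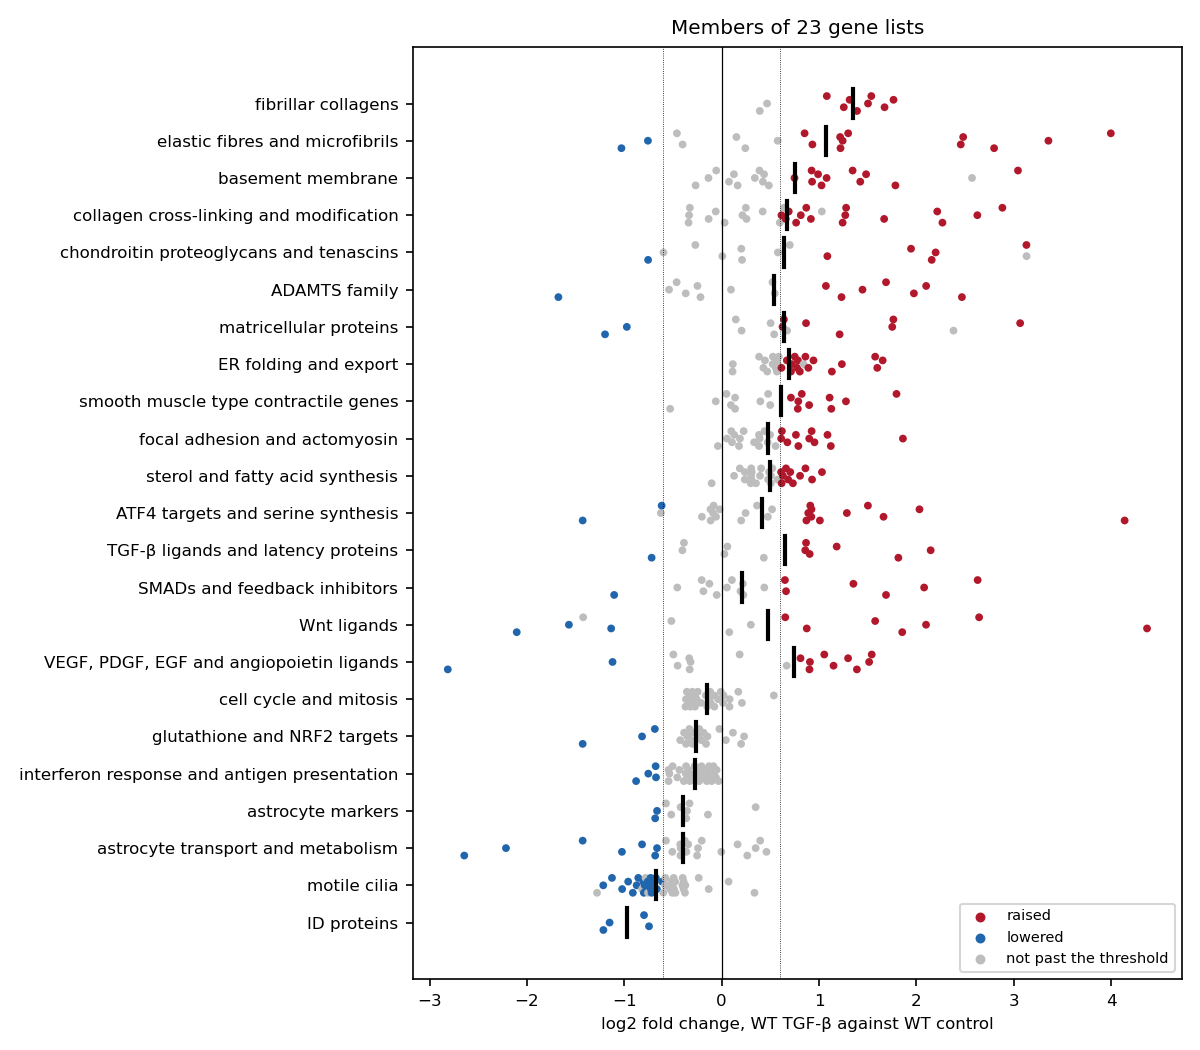
Each point is 1 gene of a list and shows its log2 fold change between WT TGF-β and WT control, in red where it rose, in blue where it fell and in grey where it did not pass the threshold; black bars are list medians and dotted lines mark 0.6 in either direction. Of the 23 lists drawn, fibrillar collagens have the highest median (1.35) and the ID proteins the lowest (-0.97), and the cell cycle list has no called gene.

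The TGF-β pathway's own genes changed at several steps. Among 12 genes of ligands and latency proteins, 6 rose and 1 fell, with a median log2 fold change of 0.65 against -0.0048 over all genes tested. Ltbp2, a microfibril protein of the LTBP family, had 452 and 455 CPM in WT control and 1996 and 2022 CPM in WT TGF-β, a log2 fold change of 2.15 (SE 0.14). Ltbp1, which binds the latent cytokine to the matrix, rose from 22.1 and 16.6 to 58.7 and 77.2 CPM. The ligand gene Tgfb1 rose from 77.5 and 51.3 to 137 and 155 CPM (log2 fold change 1.18, SE 0.23). The values of the other ligands lay on the other side of 0 and did not pass the fold threshold, with log2 fold changes of -0.40 for Tgfb2 and -0.39 for Tgfb3. Their control and TGF-β libraries did not overlap, which was common. Among all 13509 genes tested, 4547 were separated in this way downward and 4787 upward. Activators of the latent complex rose with Tgfb1: Itgav, the integrin αv subunit, by 0.90, and Thbs1, thrombospondin 1, by 0.87 on the log2 scale. Nrros, which anchors latent TGF-β on microglia, fell from 24.5 and 17.2 to 13.4 and 11.8 CPM. Without WT control replicate 1 the log2 fold change of Nrros was -0.45, under the fold limit.

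Fewer receptor genes changed. Of 12 tested, 3 rose, namely Acvr1 (log2 1.17), Bmpr2 (log2 1.03) and the accessory receptor gene Eng (log2 0.91). Tgfbr3, the coreceptor betaglycan, was the 1 that fell, from 41.7 and 41.2 to 21.3 and 16 CPM. The signalling receptors Tgfbr1 and Tgfbr2 had log2 fold changes of 0.47 and 0.21 and were not called.

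Feedback inhibitors were the raised part of the SMAD list, in which 6 of 18 genes rose and 1 fell. Pmepa1, whose product binds SMADs and blocks the receptor, rose from 190.1 and 142 to 897 and 1161 CPM, with a log2 fold change of 2.63 (SE 0.24) and an adjusted p of 3.28e-04. Ldlrad4, of the same family, rose from 20.6 and 23 to 87.7 and 96.7 CPM (log2 fold change 2.08, SE 0.093). Skil, the SnoN repressor of SMAD complexes, rose from 80.1 and 68.2 to 224 and 254 CPM, and Smad7, the inhibitory SMAD, from 25.3 and 25.5 to 63.5 and 66.4 CPM. Within each of these genes, the lower TGF-β library was more than 2 times the higher control library. The pathway's own signal carriers were not called, with log2 fold changes of 0.11 for Smad2, -0.19 for Smad3 and -0.051 for Smad4. With upper quartile scaling 4 genes of this list rose in place of 6. Smad9, a SMAD of the BMP branch, fell from 31.3 and 35.5 to 15.5 and 15.5 CPM.

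Genes linked to the BMP branch did not all move in 1 direction, and BMP activity was not measured. All 4 genes of the ID proteins, repressors of basic helix-loop-helix factors that BMP signalling is known to induce, fell. Id3 stood at 269 and 291 CPM in WT control and 119.9 and 132 CPM in WT TGF-β (log2 fold change -1.15, SE 0.082), and Id1 fell from 97.3 and 90.5 to 53.8 and 54.2 CPM (log2 fold change -0.80, SE 0.065). Id4 fell from 166 and 224 to 90.7 and 77.2 CPM. Smad6 and Bambi, members of the SMAD list, were not among the lowered genes. Ligands and antagonists of the BMP and activin branches split, with 6 of 20 raised and 4 lowered. Inhba, the subunit of activin A, rose from 34 and 60.2 to 261 and 288 CPM, with a log2 fold change of 2.54 (SE 0.24). Its antagonist genes Fst and Fstl3 rose as well, by 1.46 and 2.75. The ligand genes Bmp4 (log2 -0.67) and Bmp7 (log2 -1.36) fell. Without WT control replicate 2 the log2 fold change of Bmp4 was -0.45, under the fold limit.

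Many genes of the extracellular matrix rose. Of 10 fibrillar collagen genes tested, 8 rose and none fell, with a median log2 fold change of 1.35, and their summed level was 5015 and 6324 CPM in WT control and 12217 and 13868 CPM in WT TGF-β. Col1a1, a chain of type I collagen, rose from 1606 and 1786 to 3807 and 4627 CPM (log2 fold change 1.31, SE 0.12), and Col5a1, a chain of the type V collagen that starts fibrils, from 300.2 and 369.7 to 1046 and 1091 CPM (log2 fold change 1.67, SE 0.11). Col5a2 rose by 1.5 and Col27a1 by 1.25. Col3a1 was an exception, at 697 and 1234 CPM in control and 1343 and 1326 CPM after TGF-β, where the gap between the control replicates was larger than that between the groups (adjusted p 0.179). Among other collagens, 6 of 12 rose. Col7a1, of the anchoring fibrils, rose from 61.8 and 32.9 to 407 and 509 CPM, a log2 fold change of 3.28 (SE 0.39), and Col8a1 from 526 and 499 to 1296 and 1792 CPM. Col6a3, a chain of the microfibrillar type VI collagen, rose by 3.11 with control replicates apart, from 40.4 and 14.4 to 190.4 and 281 CPM.

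Enzymes that modify and cross-link collagen rose with it. Of 28 tested, 15 rose and none fell, and their summed level was 4119 and 4252 CPM in WT control and 10519 and 12970 CPM in WT TGF-β. Lox, lysyl oxidase, gained the most CPM of all raised genes, a measure that is not scaled by transcript length: 646 and 695 CPM in WT control and 4268 and 5625 CPM in WT TGF-β, or 2.88 (SE 0.17) on the log2 scale (adjusted p 9.23e-05). All 4 of its relatives rose, Loxl1 by 2.27, Loxl2 by 2.21, Loxl3 by 0.92 and Loxl4 by 2.63. Plod2, the lysyl hydroxylase of the collagen telopeptides, rose from 232 and 217 to 634 and 796 CPM, and P3h1, a prolyl hydroxylase, from 56.9 and 56.8 to 125 and 149 CPM. Serpinh1, the collagen chaperone HSP47, rose by 0.76, and Fkbp10, a collagen foldase, by 1.28. Measured per transcript length, Lox stood at 126 and 133 FPKM in control and 787 and 892 FPKM after TGF-β, and among 18644 genes its rank went from 448 and 412 to 32 and 29.

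Elastic fibres and their microfibrils included genes with large folds. Of 18 genes, 11 rose and 2 fell. Adamtsl2 (chr2:27079379-27108981), a microfibril protein, had 2.19 and 1.49 CPM in control and 25.5 and 33.4 CPM after TGF-β, a 16-fold rise with a log2 fold change of 4.0 (SE 0.21). Fbn1, the fibrillin of microfibrils, rose from 123 and 139.9 to 653 and 792 CPM, Fbln2 from 67.3 and 93.9 to 396 and 505 CPM and Mfap4 from 28.9 and 38.3 to 214 and 255 CPM. Eln, elastin, rose by 3.36 (SE 1.03), and its replicates were far apart, with 232 and 40.7 CPM in control and 964 and 1828 CPM after TGF-β. The lowest TGF-β library was still more than 4 times the highest control library, and the call was lost without control replicate 2 (log2 fold change 2.57, adjusted p 0.137 in edgeR) or either TGF-β library. Efemp1 fell from 190.4 and 219 to 96.8 and 104 CPM and Fbln7 from 16.7 and 18.3 to 9.79 and 10.9 CPM, so members of the fibulin family went in both directions. Thsd4, a fibrillin-binding relative of Adamtsl2, fell from 67.8 and 80.7 to 11.2 and 12 CPM, a log2 fold change of -2.68 (SE 0.17) and opposite in sign to Adamtsl2.

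**Figure D2:**
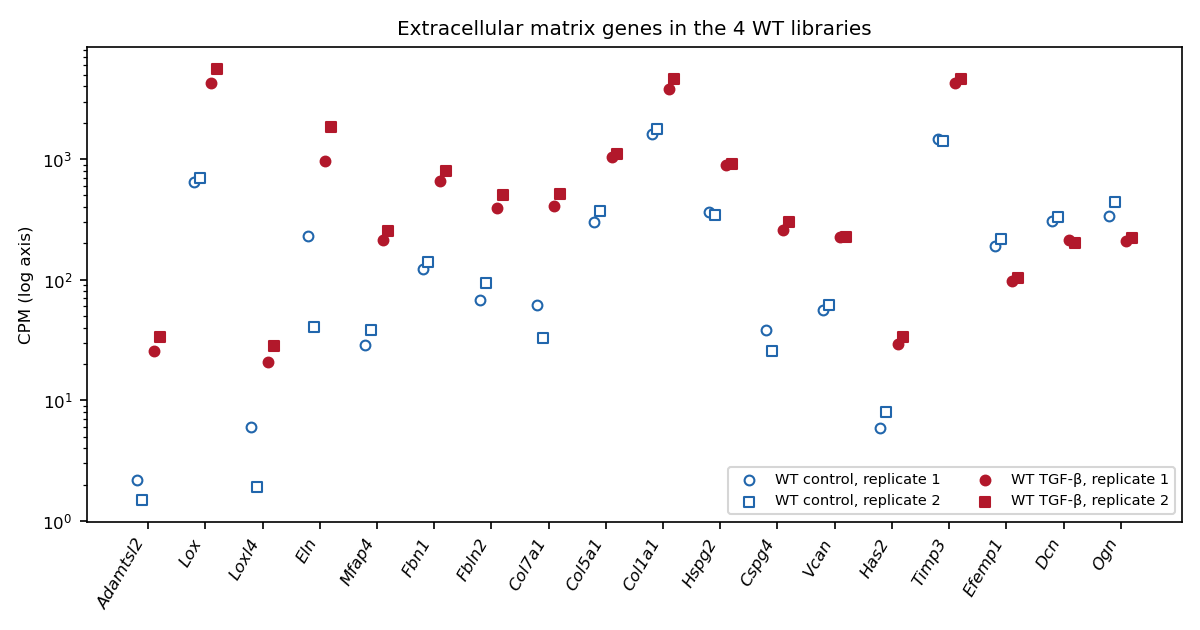
CPM on a log axis of 18 matrix genes in the 4 WT libraries, open blue for control and filled red for TGF-β, circles for replicate 1 and squares for replicate 2. The 15 genes on the left are higher in both TGF-β libraries than in both control libraries, and Efemp1, Dcn and Ogn on the right are lower; the replicates of Eln and Loxl4 are widest apart in the control group.

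Basement membrane genes rose in 11 of 23 cases and none fell (median 0.75). Hspg2, the heparan sulfate proteoglycan perlecan, rose from 364 and 347 to 889 and 918 CPM (log2 fold change 1.35, SE 0.09). Lamc1 and Lamb1, laminin chains, rose by 1.08 and 1.03, and Agrn, agrin, by 0.75. The type IV collagen chains Col4a1 and Col4a2 rose by 0.93 and 0.99, while the nidogen gene Nid2 (log2 -0.27) was not called. Lama1 rose by 3.04 with replicates apart, at 11.7 and 3.76 CPM in control and 51.1 and 75.1 CPM after TGF-β.

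The chondroitin sulfate proteoglycans, which hold back axon growth in glial scars, did not move as 1 group. Of 14 proteoglycan, tenascin and hyaluronan genes, 5 rose and 1 fell. Cspg4, the proteoglycan NG2, rose from 38.5 and 25.4 to 257 and 302 CPM (log2 fold change 3.13, SE 0.25), and Vcan, versican, from 55.8 and 61.6 to 224 and 228 CPM (log2 fold change 1.95, SE 0.13). Has2, a hyaluronan synthase, rose from 5.93 and 8.06 to 29.4 and 33.4 CPM and Tnr, tenascin R, from 3.22 and 3.76 to 7.63 and 7.23 CPM. Tnc, tenascin C, rose by 2.2 with control replicates apart, from 261 and 699 to 2453 and 1952 CPM. Of brevican and neurocan, the forms typical of the brain, Bcan fell from 50.8 and 69.1 to 33.5 and 37.7 CPM and Ncan was not called (log2 0.21). Acan, aggrecan, had 4.13 and 0 CPM in control and 8.29 and 27.3 CPM after TGF-β and was not called (adjusted p 0.0779), with control replicate 1 and TGF-β replicate 2 higher than the other replicates. Cspg4 also marks oligodendrocyte precursors. Other markers of that lineage were divided. Of the 9 tested, with Cspg4 among them, 5 had a log2 fold change above 0 and 4 below. Pdgfra fell from 13.8 and 12.2 to 7.13 and 6.01 CPM, Cnp was lower as well (log2 -0.76) and Sox10 was near 0. The summed level of the 8 markers other than Cspg4 was 353 and 355 CPM in WT control and 287 and 323 CPM in WT TGF-β. Enzymes that build and sulfate the side chains rose in 6 of 20 cases and none fell. Xylt1, which starts the chain, rose from 6.71 and 6.92 to 21.5 and 19.2 CPM (log2 fold change 1.58, SE 0.17), Chsy1, which extends it, from 79.4 and 79.7 to 164 and 186 CPM, and the sulfotransferase Chst11 from 104 and 122 to 322 and 337 CPM.

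Small leucine-rich, SPOCK and SMOC proteoglycans were also divided, with 4 of 13 raised and 2 lowered. With upper quartile scaling 2 rose and 3 fell, and fewer rose without control replicate 1 or TGF-β replicate 2. Bgn, biglycan, rose from 1077 and 1072 to 2369 and 2881 CPM (log2 fold change 1.29, SE 0.11). Its close relative Dcn, decorin, which binds TGF-β, fell from 306 and 332 to 214 and 202 CPM (log2 fold change -0.62, SE 0.095), and Ogn fell from 339.7 and 439.6 to 211 and 223 CPM (log2 fold change -0.85, SE 0.12). Without control replicate 2 the log2 fold change of Dcn was -0.58, under the fold limit. Dcn and Ogn are meningeal fibroblast markers too. Of the 11 markers on that list, 3 rose, namely Col1a1, Crabp2 and Aldh1a2, and 2 fell, namely Dcn and Ogn. The summed level of the list was 4384 and 5394 CPM in WT control and 7143 and 8323 CPM in WT TGF-β. The sum holds Col1a1 and Col3a1, and over the other 9 markers it was 2080.1 and 2374 CPM in WT control and 1993 and 2370.2 CPM in WT TGF-β. Without WT TGF-β replicate 2, 1 marker rose. The part of such cells in the collagen values was not tested.

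Some proteases and some inhibitors of proteases rose. Of 18 metalloproteinase and TIMP genes, 4 rose and 1 fell: the membrane protease Mmp14 rose from 312 and 297 to 713 and 758 CPM, its target Mmp2 from 345 and 311 to 611 and 776 CPM, the inhibitor Timp3 from 1462 and 1399 to 4231 and 4586 CPM (log2 fold change 1.62, SE 0.11) and Timp1 from 73.8 and 199 to 779.7 and 710.4 CPM. The median of this list was -0.13, and 10 of its genes were below 0. Mmp12, a macrophage elastase, fell from 23 and 13.2 to 9.07 and 11.1 CPM, a call lost in limma-voom (adjusted p 0.0545). Without WT control replicate 1 the log2 fold change of Mmp12 was -0.39. The ADAMTS family gave 7 raised and 1 lowered genes of 16. Adamts8 rose from 14.4 and 15.1 to 58.2 and 58 CPM (log2 fold change 1.97, SE 0.13) and Adamts4, an aggrecanase, from 13.8 and 26.4 to 118 and 105 CPM, whereas Adamts15, also an aggrecanase, fell from 13.9 and 14.5 to 4.92 and 3.9 CPM (log2 fold change -1.68, SE 0.18). The urokinase receptor gene Plaur rose by 1.25.

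Matricellular proteins, which tune adhesion, had 7 raised and 2 lowered genes of 15. Ccn2, known as connective tissue growth factor, rose from 982 and 864 to 2739 and 3479 CPM (log2 fold change 1.75, SE 0.15), and Thbs2 from 362 and 398 to 1217 and 1366 CPM (log2 fold change 1.76, SE 0.091). Ccn4, a Wnt-linked relative of Ccn2, rose from 34.1 and 78.1 to 469.9 and 473 CPM. Sparcl1, which astrocytes secrete to promote synapses, fell from 203 and 228 to 110 and 109 CPM (log2 fold change -0.97, SE 0.074), and its relative Sparc was not called (log2 0.54). Sparc was still the most abundant matrix transcript of the list per length, with 1740 and 1799 FPKM in control and 2265 and 2421 FPKM after TGF-β.

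**Figure D3:**
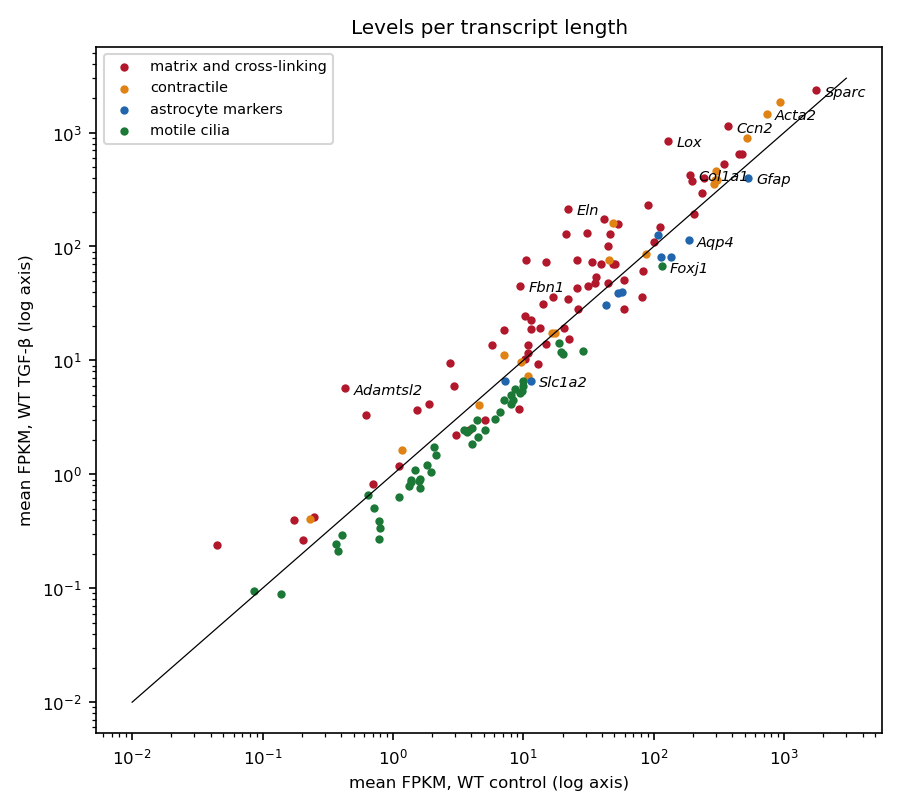
Mean FPKM of WT control (x axis) against WT TGF-β (y axis), both log axes, for matrix, contractile, astrocyte marker and motile cilia genes, with the line of equal levels. Lox and Adamtsl2 lie far above the line, Sparc and Acta2 at the top, and Gfap, Aqp4, Slc1a2 and Foxj1 below the line.

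Cells also changed their adhesion and contractile genes. Fn1, fibronectin, rose from 2677 and 3190 to 6192 and 6137 CPM (log2 fold change 1.07, SE 0.12), and with it 8 of 17 genes of fibronectin and integrins rose, while Itga8 fell. The fibronectin receptor gene Itga5 rose from 142 and 166 to 568 and 546 CPM (log2 fold change 1.85, SE 0.14) and Itgb3, a partner of αv, from 9.67 and 13.6 to 50.5 and 50.5 CPM (log2 fold change 2.11, SE 0.17). Contractile genes of the smooth muscle type rose in 9 of 18 cases and none fell. Acta2, smooth muscle actin, rose from 2293 and 2651 to 5000 and 5662 CPM (log2 fold change 1.11, SE 0.11), Tagln from 1722 and 1672 to 3306 and 4105 CPM (log2 fold change 1.13, SE 0.13) and the caldesmon gene Cald1 by 0.79. Myl9, a myosin light chain gene, was not called (log2 0.50), and neither were the factors Srf (log2 0.14) and Mrtfa (log2 0.14). The mural cell marker Rgs5 had a log2 fold change of 0.17 and was not called, while 3 of the 5 mural markers, Pdgfrb (log2 1.02), Notch3 (log2 1.12) and Anpep (log2 1.12), rose. The remaining marker lay below 0 (log2 -0.64), was not called with TMM and was lowered with upper quartile scaling.

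Focal adhesion and actomyosin genes moved by small amounts in 1 direction: 26 of 27 were above 0 and 11 rose, with a median of 0.47. Actn1, an actin crosslinker, rose from 682 and 659 to 1259 and 1337 CPM and Myh9, a nonmuscle myosin, from 975 and 947 to 1742 and 1843 CPM. Pdlim1, an actin-linked adaptor, had the largest change of the list (log2 fold change 1.86, SE 0.23). Of the 16 YAP and TEAD genes, 4 rose and none fell, or 2 with upper quartile scaling and without WT TGF-β replicate 2, and Yap1 itself was not called (log2 -0.086). Ankrd1 rose from 0 and 0.836 to 4.98 and 3.45 CPM, on few counts.

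Astrocyte genes had values on the other side of 0, and mostly small ones. Of the 10 astrocyte markers, 9 had a log2 fold change below 0 and 2 fell, with a median of -0.39. Glul, glutamine synthetase, fell from 393 and 388 to 241 and 252 CPM (log2 fold change -0.66, SE 0.083), and Slc1a2, the glutamate transporter GLT-1, from 145 and 132 to 79.6 and 93 CPM (log2 fold change -0.68, SE 0.10). Slc1a3, the other glutamate transporter, changed by -0.42 and Aqp4 by -0.57, both with adjusted p under 0.05 and under the fold limit. Gfap was not called (log2 -0.36, adjusted p 0.127), and nor was Vim (log2 -0.50). Gja1, connexin 43, was the 1 marker above 0 (log2 0.35). With upper quartile scaling 4 markers fell in place of 2.

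Genes of astrocyte transport and metabolism fell in 7 of 24 cases, or 4 without WT TGF-β replicate 2, and none rose. Slc7a11, the cystine-glutamate exchanger, fell from 197 and 119 to 51.6 and 65.9 CPM (log2 fold change -1.43, SE 0.27). The connexin gene Gjb2 fell from 17.4 and 32.3 to 13.8 and 10.6 CPM and Gjb6 from 2.19 and 3.04 to 0.553 and 0.256 CPM. Kcnj10, the main potassium channel of astrocytes, was not called (log2 0.40). Sox9 (log2 -0.33), Sox2 (log2 -0.40) and Nfia (log2 -0.16), factors of glial identity, were not called. Of 17 such factors 2 fell, Id4 and the stress factor gene Atf3 (log2 -0.79, or -0.42 without control replicate 1). The radial glia genes Fabp7 (log2 -0.72), Prom1 (log2 -0.77) and Hopx (log2 -0.70) fell, calls of which 1 was left without control replicate 2 or TGF-β replicate 1, and the nestin gene Nes was under the fold limit (log2 0.50).

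Sets used to grade reactive astrocytes did not move as blocks. Of 13 pan-reactive genes, Timp1 and Hspb1 rose and none fell, and Lcn2 (log2 -0.16), the best known of them, was not called. Of 12 genes of the set called A1, 5 fell, among them Gbp2 (log2 -0.88), Serping1 (log2 -0.66) and Amigo2 (log2 -0.99), and Fbln5 (log2 1.22) and Fkbp5 (log2 0.84) rose. Of this set 3 fell without control replicate 1 and 2 without TGF-β replicate 1. Of 11 genes of the set called A2, 4 rose and none fell. Sphk1, sphingosine kinase, rose from 4.51 and 5.07 to 20.5 and 18.7 CPM, Emp1 by 1.34, Ptgs2, cyclooxygenase 2, by 1.15 and B3gnt5 by 0.65.

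Genes of motile cilia were the list with the most lowered members. Such cilia beat on ependymal cells, under a programme led by GMNC, MCIDAS and FOXJ1 with RFX factors. Of 46 genes tested, 44 were below 0, 21 fell and none rose, with a median of -0.67, and 12 fell in the fit without WT TGF-β replicate 2 and 11 without control replicate 2. The summed level of the list was 1102 and 1254 CPM in WT control and 808 and 732 CPM in WT TGF-β. Foxj1 fell from 295 and 342 to 212 and 187 CPM (log2 fold change -0.68, SE 0.097) and Gmnc from 23.7 and 26.3 to 14.6 and 11.9 CPM (log2 fold change -0.91, SE 0.17). Rfx2 (log2 -0.49) and Rfx3 (log2 -0.48) stayed under the fold limit. Among structural genes, the dynein heavy chain gene Dnah6 fell from 28.1 and 32.1 to 16.6 and 12.9 CPM and Dynlrb2, a dynein light chain, from 11.6 and 17.4 to 6.97 and 5.5 CPM (log2 fold change -1.22, SE 0.21). The axoneme genes Cfap126 (log2 -0.79), Armc3 (log2 -0.80) and Cfap46 (log2 -0.86) fell. In the KO libraries 44 of the same 46 genes were below 0 as well, with a median of -0.57. Ependymal markers fell in 5 of 9 cases, or 2 without control replicate 2, with a summed level of 1158 and 1235 CPM in WT control and 899 and 843 CPM in WT TGF-β, and all 5 that fell are also in the cilia list. The part of ependymal cells in these values was not tested.

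**Figure D4:**
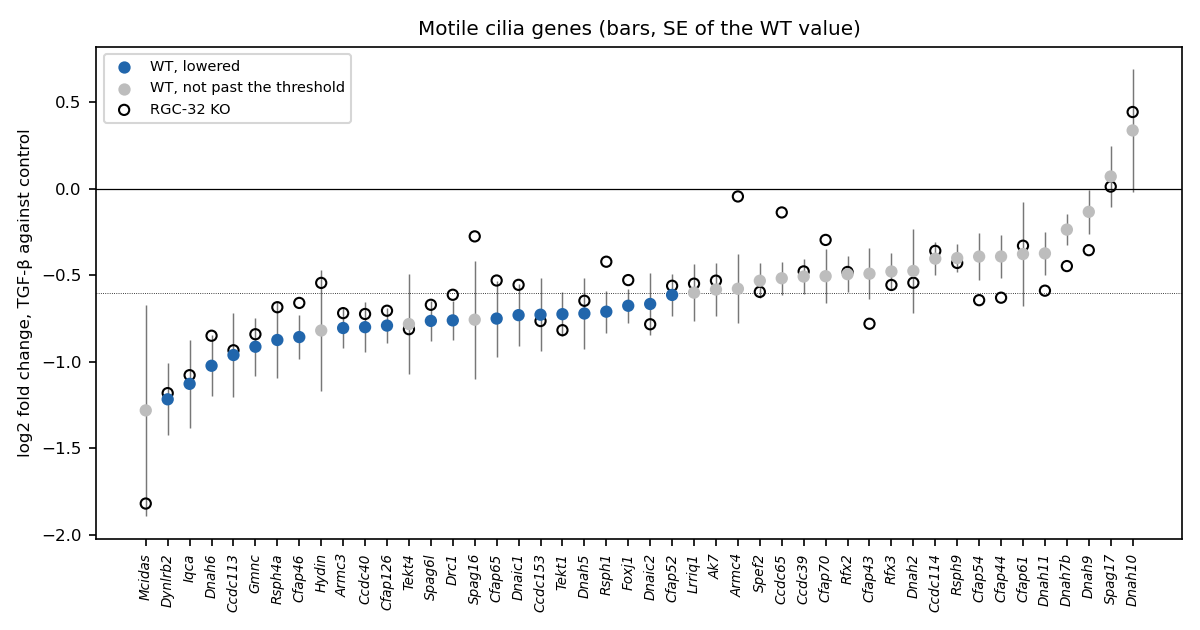
Log2 fold change between TGF-β and control of the 46 motile cilia genes, ordered by the WT value, with filled points for WT (blue where lowered, grey where not past the threshold, bars for the SE) and open circles for RGC-32 KO. All but Spag17 and Dnah10 lie below 0 in both genotypes, between 0 and about the level of Mcidas (-1.28 in WT).

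The X-box bound by RFX factors contains the half-site GTTGCC, and this half-site was looked for on both strands of RefSeq promoters (GRCm38.p6), from 250 bases before to 50 after the start, without regard to overlap with other motifs. It was found in 20 of 40 motile cilia promoters (50%), against 1382 of 10578 promoters of tested genes (13.1%) and 112 of 578 promoters of lowered genes (19.4%). The list was built of cilia genes, which are known for such sites, so the match describes the list and not the response. The stretches that hold it in 4 of the lowered genes are shown in the direction of transcription, with the half-site, in either orientation, in capitals. They lie before the start of Dynlrb2 (chr8:116504934-116504993, plus strand), Iqca (chr1:90153507-90153566, minus strand), Ccdc153 (chr9:44240495-44240554, plus strand) and Tekt1 (chr11:72361888-72361947, minus strand, with 2 copies).
Dynlrb2: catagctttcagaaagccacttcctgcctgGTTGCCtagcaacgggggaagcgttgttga
Iqca: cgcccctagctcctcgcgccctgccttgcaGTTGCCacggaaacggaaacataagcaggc
Ccdc153: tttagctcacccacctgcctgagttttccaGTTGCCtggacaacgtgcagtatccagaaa
Tekt1: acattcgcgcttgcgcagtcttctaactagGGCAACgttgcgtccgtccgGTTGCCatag
Their log2 fold changes were -1.22 for Dynlrb2, -1.13 for Iqca, -0.73 for Ccdc153 and -0.72 for Tekt1. The call was lost for Ccdc153 in DESeq2 on all 8 libraries (adjusted p 0.0817). It was lost for Iqca in DESeq2 on the WT libraries alone (adjusted p 0.0718). Without control replicate 2 the values were -0.42 for Ccdc153 and -0.84 for Iqca.

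Markers of the choroid plexus, an epithelium that borders the ventricles, were lower in 4 of 8 cases. Aqp1, its water channel, fell from 45.2 and 55.1 to 13.3 and 9.02 CPM (log2 fold change -2.16, SE 0.29), and Kcnj13, a potassium channel, from 5.16 and 4.77 to 0.498 and 0.831 CPM (log2 fold change -2.91, SE 0.26). The defining marker Ttr was near 0 in all libraries, at 1.29 and 1.19 CPM in control and 0.829 and 0 CPM after TGF-β, and Otx2 was not called (log2 -0.23).

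Transcription factors of mesenchymal cells rose in 8 of 18 cases. Scx, scleraxis, a factor of tendon cells, rose from 2.51 and 2.33 to 13.9 and 18.9 CPM (log2 fold change 2.75, SE 0.19), Sox11 from 8.0 and 7.46 to 20.9 and 25.1 CPM, Runx1 from 52.2 and 53.9 to 125 and 111 CPM and Prrx1 by 0.62. The close relatives Snai1 (log2 0.93), which rose, and Snai2 (log2 -0.93), which fell, were called in opposite directions. The Snai2 call was lost in limma-voom (adjusted p 0.0508) and in edgeR with the replicate block (adjusted p 0.0712). Without control replicate 2 the log2 fold change of Snai2 was -0.62. Zeb1 (log2 0.15), Zeb2 (log2 -0.20) and Twist1 (log2 -0.28) were not called. With upper quartile scaling 5 genes of the list rose. Among early response factors Klf10, a TGF-β inducible repressor, rose from 27.3 and 24.4 to 56.2 and 59 CPM and Egr2 from 28.1 and 15.2 to 53.6 and 64.6 CPM, while Fos, at 516 and 291 CPM in control and 293 and 305 CPM after TGF-β, was not called. Of 18 such factors 5 rose, or 3 with upper quartile scaling, and Atf3 fell, with a log2 fold change of -0.42 without control replicate 1. In the clock list, Hlf fell from 8.45 and 9.85 to 2.6 and 1.79 CPM (log2 fold change -2.04, SE 0.20), Dbp from 57.2 and 64.6 to 35.6 and 39.2 CPM, and Bhlhe40 rose from 52.4 and 78 to 215 and 190 CPM.

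The cell cycle list held no called gene. Of its 30 genes 0 passed the threshold in edgeR, limma-voom or DESeq2, while at an unadjusted p under 0.05 in edgeR 2 were higher and 12 lower, and the proliferation markers Mki67 (log2 0.019) and Top2a (log2 -0.036) were near 0. Ccnd1, cyclin D1, was nevertheless among the lowered genes with the largest loss of CPM, from 1257 and 1080 to 644 and 691 CPM (log2 fold change -0.81, SE 0.09). The inhibitor gene Cdkn1c fell from 28.6 and 29 to 14.2 and 14.6 CPM and Cdkn2a rose by 0.90, a call lost with DESeq2 and without WT TGF-β replicate 2, while the TGF-β targets of epithelial cells Cdkn1a (log2 0.45) and Cdkn2b (log2 0.32) were not called and Myc was near 0 (log2 -0.037). Oxidative phosphorylation subunits (73 genes) had 0 calls with edgeR, DESeq2 and limma-voom, and at an unadjusted p under 0.05 in edgeR 1 was higher and 10 were lower. Lists with no call in 1 direction were looked at in the same way, and in 38 of 39 such cases DESeq2 gave 0 calls as well, with the lysosomal microglial marker Cd68, lowered in DESeq2, as the exception.

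Ligand genes of several other pathways changed. Of 14 Wnt ligand genes, 7 rose and 3 fell. Wnt11 rose from 1.16 and 2.39 to 11.7 and 10.7 CPM (log2 fold change 2.64, SE 0.32) and Wnt2 from 3.48 and 4.36 to 14.9 and 18.9 CPM (log2 fold change 2.1, SE 0.21), and Wnt6 fell from 5.42 and 6.8 to 1.71 and 1.09 CPM (log2 fold change -2.11, SE 0.24), with Wnt7a also lower (log2 -1.14). Wnt9a, one of the raised ligands, went from 46.9 and 18 to 76.8 and 158 CPM (adjusted p 0.0427 in edgeR) and was higher in control replicate 1 and TGF-β replicate 2. The count of raised ligands was 3 without control replicate 2 or TGF-β replicate 2 and 4 with DESeq2. Axin2, the common target of the β-catenin branch, was not called (log2 0.21), while Lef1 rose by 1.49 and the feedback inhibitor genes Notum (log2 -1.64) and Nkd1 (log2 -0.81) fell. Fzd6 rose from 49 and 47.5 to 102 and 128 CPM and Dkk3 from 134 and 158 to 282 and 359 CPM.

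Growth factor genes for vessels and neighbouring cells rose in 9 of 18 cases. Vegfa rose from 70.2 and 79.1 to 161 and 170 CPM (log2 fold change 1.15, SE 0.076), Pdgfc from 63.2 and 67.4 to 157 and 217 CPM (log2 fold change 1.51, SE 0.15) and Hbegf, an EGF receptor ligand, from 119 and 107 to 277 and 316 CPM (log2 fold change 1.39, SE 0.11). Nrg1 rose by 0.91. Angpt2, the angiopoietin that antagonises Tek, fell from 17.2 and 19.2 to 3.48 and 1.6 CPM (log2 fold change -2.81, SE 0.37), and Vegfd, a lymphatic growth factor, from 7.67 and 6.27 to 3.37 and 3.01 CPM. In the IGF axis Igf1 rose from 116 and 109.6 to 412 and 446 CPM (log2 fold change 1.93, SE 0.091), Igfbp3 by 0.99 and the clearance receptor gene Igf2r by 1.02, and Igfbp4 fell from 129.7 and 162 to 81.7 and 76.3 CPM. Of 13 genes of this axis 7 rose, or 4 without WT TGF-β replicate 2. Igfbp5 rose from 3208 and 3917 to 6271 and 5476 CPM. Among neurotrophic factors Bdnf rose from 19.1 and 21.5 to 43.3 and 56 CPM, and Ptn, pleiotrophin, fell from 249.7 and 263 to 143 and 149.7 CPM. Ngfr, the low-affinity neurotrophin receptor, had 6.26 and 0 CPM in control and 7.41 and 21.3 CPM after TGF-β and was not called, with control replicate 1 and TGF-β replicate 2 again the higher ones.

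Guidance genes also changed. Of 18 Eph receptor and ephrin genes, 7 rose and 2 fell. Ephb1 rose from 4.58 and 5.25 to 21.1 and 23.8 CPM (log2 fold change 2.19, SE 0.16) and Epha2 from 27.5 and 25.4 to 49 and 54 CPM, while Efnb3, a ligand of the B receptors, fell from 11.4 and 16.2 to 4.59 and 4.67 CPM (log2 fold change -1.58, SE 0.21) and Epha5 from 15.2 and 18 to 10.4 and 10.6 CPM. Epha7 rose from 10.5 and 13.6 to 17.3 and 21.1 CPM (log2 fold change 0.67, SE 0.18). In the Slit, netrin, semaphorin and plexin list, 7 of 39 rose and 3 fell. Sema7a, a membrane semaphorin that binds integrins, rose from 9.93 and 8.42 to 50.4 and 65.8 CPM (log2 fold change 2.66, SE 0.22), Plxna4 from 20.9 and 20.4 to 52.4 and 53.4 CPM and Robo1 from 66.7 and 68.1 to 139 and 136 CPM. The axon-repelling Sema3a fell from 19.7 and 26.4 to 11.8 and 13.9 CPM. Notch genes were raised in 4 of 16 cases, with Jag1 from 71.6 and 87.8 to 178 and 172 CPM and Notch3 from 60.2 and 60.7 to 132 and 129.9 CPM, while the target Hes1 was not called (log2 0.34).

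Retinoic acid genes changed at synthesis and breakdown, with 5 of 16 raised, or 3 without control replicate 2 or TGF-β replicate 2, and 1 lowered. Aldh1a3, an enzyme that makes retinoic acid, rose from 1.68 and 6.68 to 51 and 41.6 CPM (log2 fold change 3.45, SE 0.60), Rdh10 by 0.64 and Aldh1a2 by 1.04. Cyp26b1, the enzyme that breaks retinoic acid down, fell from 162 and 280.4 to 50.5 and 15.2 CPM (log2 fold change -2.74, SE 0.68), with both groups spread widely but not overlapping, and lost its call without WT TGF-β replicate 2 (log2 fold change -2.15, adjusted p 0.0917 in edgeR) or control replicate 2. The binding protein gene Crabp2 rose by 2.35, at 14.2 and 4.12 CPM in control and 31.5 and 61.2 CPM after TGF-β. Crabp2 and Aldh1a2 are also meningeal fibroblast markers, and the part of such cells in these values was not tested. Stra6, a retinol uptake receptor, was not called, with 7.93 and 0 CPM in control and 8.79 and 36.1 CPM after TGF-β. Both Crabp2 and Stra6 were higher in control replicate 1 and TGF-β replicate 2, and Cyp26b1 was higher in the other 2 libraries of the groups.

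Cytokines of the IL-6 family rose in 3 of 15 cases. Lif, leukaemia inhibitory factor, rose from 15.7 and 29.5 to 101 and 81.8 CPM (log2 fold change 2.01, SE 0.36). Il11 rose by 3.75 (SE 0.73), from 0.258 and 2.57 to 20.5 and 18.7 CPM, and was not past the threshold in DESeq2 on all 8 libraries (adjusted p 0.138). Il6 itself had 0 and 16.1 CPM in control and 40.6 and 21.9 CPM after TGF-β and was not called (adjusted p 0.266), with the control libraries far apart. The target Socs3 was not called (log2 0.31).

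Interferon response genes had lower values after TGF-β in WT, by an amount that depended on WT control replicate 1. Each of the 36 genes had a value below 0, with a median of -0.27, and 4 passed the threshold: Gbp2 from 179 and 149 to 81.9 and 96.7 CPM (log2 fold change -0.88, SE 0.15), Ifit1 from 81.1 and 61.2 to 40.1 and 44.2 CPM (log2 fold change -0.75, SE 0.13), Ifit3 from 156 and 128 to 80.4 and 97.7 CPM (log2 fold change -0.67, SE 0.16) and Psmb9 from 19.9 and 15.2 to 10.2 and 11.7 CPM (log2 fold change -0.68, SE 0.22). With upper quartile scaling 7 fell. The summed level of the list was 5299 and 4133 CPM in WT control and 4149 and 4024 CPM in WT TGF-β. Control replicate 1 was thus high and the other 3 libraries were close. Both TGF-β libraries lay below both control libraries for 21 of the 36 genes, against 4547 of all 13509 tested. Without control replicate 1, 23 genes were below 0 with a median of -0.096 and 2 passed the threshold. The count was 10 without control replicate 2 and 2 without TGF-β replicate 1. Ifit1 was at -0.54, Ifit3 at -0.53 and Psmb9 at -0.47 without control replicate 1, and none of the 3 was then called. In KO, 20 of the 36 genes were below 0 with a median of -0.06. Among complement genes Serping1, the C1 inhibitor, fell from 177 and 177 to 115 and 108 CPM (log2 fold change -0.66, SE 0.081), Cd55 rose by 0.69, and C3 was not called (log2 -0.30). Of 15 genes of chemokines and of cytokines such as Csf1, Cxcl14 rose (log2 fold change 0.90, SE 0.28) and none fell. The Cxcl14 call was lost in DESeq2 on all 8 libraries (adjusted p 0.0758) and in edgeR with upper quartile scaling (adjusted p 0.0578). Its log2 fold change was 0.6 without control replicate 1, 0.67 without TGF-β replicate 1 and 1.09 without TGF-β replicate 2. Microglial markers gave 1 call in 15, with Tmem119 rising from 39.1 and 43.6 to 79.6 and 85 CPM (log2 fold change 0.99, SE 0.13), while P2ry12 (log2 0.38) and Tyrobp (log2 -0.26) were not called. The part of microglia in the immune values was not tested.

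Secretory pathway genes had values on 1 side of 0. All 30 genes of protein folding and export from the endoplasmic reticulum had values above 0, 16 rose, and the median was 0.69. Their summed level was 7971 and 7562 CPM in WT control and 11468 and 12875 CPM in WT TGF-β. Pdia5 rose from 11.5 and 12.7 to 34.3 and 42.1 CPM (log2 fold change 1.65, SE 0.11), Kdelr3, a receptor that returns resident proteins, from 21.6 and 24.2 to 64.3 and 74.6 CPM (log2 fold change 1.6, SE 0.095) and Creb3l2, a factor for secretory capacity, from 35.1 and 45.2 to 117 and 123 CPM (log2 fold change 1.58, SE 0.11). Sec31a, of the vesicle coat, rose from 177 and 184 to 302 and 327 CPM. The chaperone gene Hspa5 rose from 887 and 817 to 1349 and 1444 CPM. Xbp1 (log2 0.56) and Dnajb9 (log2 0.11), genes of the IRE1 branch of the stress response, and Ddit3 (log2 -0.20), of its lethal branch, were not called.

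Amino acid supply genes under ATF4 changed in 11 upward and 2 downward cases of 26. The proline synthesis genes Pycr1 and Aldh18a1 rose, Pycr1 from 6.77 and 9.37 to 21 and 25 CPM (log2 fold change 1.5, SE 0.16) and Aldh18a1 from 41 and 43.6 to 73.5 and 86.9 CPM (log2 fold change 0.92, SE 0.088). Aldh1l2, a mitochondrial folate enzyme, rose from 12.1 and 12.9 to 32.7 and 46.7 CPM and Nupr1 from 67.8 and 76.2 to 249 and 341 CPM. Fgf21, a secreted stress signal, rose from 0.516 and 0.119 to 4.37 and 6.91 CPM (log2 fold change 4.14, SE 0.66), the largest fold change of the named raised genes, on 8 and 2 counts in the control libraries. Of the serine synthesis enzymes in the list, Psat1 fell from 125 and 137 to 81.7 and 89 CPM, a call lost without control replicate 2 (log2 -0.57) or TGF-β replicate 1 (log2 -0.55), and Phgdh (log2 -0.021) and Psph (log2 -0.11) were not called. Atf4 itself stayed under the fold limit (log2 0.47).

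The ATF4 element, searched as TGATGNAA on both strands in the same promoter windows, was present in 7 of 23 promoters of this list (30.4%), against 248 of 10578 of all tested genes (2.34%), 25 of 775 of raised genes (3.23%) and 23 of 578 of lowered genes (3.98%). As with the cilia list, the members were chosen as known targets. The stretches with the element in capitals, in either orientation, are shown for 4 raised genes and for Slc7a11, which fell with 2 copies. They lie before the start of Fgf21 (chr7:45615600-45615659), Nupr1 (chr7:126625551-126625610), Pycr1 (chr11:120643822-120643881), Asns (chr6:7693210-7693269) and Slc7a11 (chr3:50443650-50443709), all on the minus strand of GRCm38.p6.
Fgf21: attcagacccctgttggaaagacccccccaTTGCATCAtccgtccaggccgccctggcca
Nupr1: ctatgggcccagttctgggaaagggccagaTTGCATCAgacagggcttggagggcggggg
Pycr1: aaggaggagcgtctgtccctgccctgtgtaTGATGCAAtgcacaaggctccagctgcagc
Asns: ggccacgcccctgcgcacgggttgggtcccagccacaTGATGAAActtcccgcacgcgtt
Slc7a11: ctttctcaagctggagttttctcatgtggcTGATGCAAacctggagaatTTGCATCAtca
Asns, asparagine synthetase, had 29 and 25.9 CPM in control and 45.8 and 57.4 CPM after TGF-β. Slc7a11 had 197 and 119 and 51.6 and 65.9 CPM, so genes with the same element went in both directions. The other motifs searched are given for raised genes against all tested genes. The AP-1 element TGANTCA was in 63 of 775 raised (8.13%) against 557 of all (5.27%), the TEAD element GGAATG in 13.8% against 12.1%, the CArG box in 1.42% against 1.28%, and the palindromic SMAD element GTCTAGAC in 0.258% against 0.246%.

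Lipid synthesis genes had values above 0 in nearly all cases. Of 30 sterol and fatty acid genes, 29 were above 0 and 11 rose, or 6 with upper quartile scaling, 7 without TGF-β replicate 2 and 5 without control replicate 2. The fatty acid genes Fasn and Acaca rose by 0.73 and 0.81, and the regulator Srebf1 by 0.66. Glutathione and detoxification genes went down where they were called. Of 22, 3 fell and none rose. They were Gstm1 and Gsta4, which encode glutathione transferases, and Slc7a11, which is also in the astrocyte transport and ATF4 lists. Gstm1 fell from 1500 and 1433 to 798 and 866 CPM (log2 fold change -0.82, SE 0.082), the largest loss of CPM in the data among lowered genes. The classic NRF2 target Nqo1 was not called (log2 -0.43). Outside this list, Prdx6, a peroxidase, fell from 1056 and 1118 to 554 and 564 CPM (log2 fold change -0.96, SE 0.074) and Ephx1, an epoxide hydrolase, from 598 and 625 to 369 and 412 CPM. Glycolysis was nearly still, with Hk2 raised (log2 0.66) and Ldhb lowered (log2 -0.88) among 20.

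Some of the largest changes were in genes of none of these groups. Kcnk12, a potassium channel subunit of the tandem pore family, rose from 0.387 and 0.537 to 6.63 and 7.23 CPM (log2 fold change 3.88, SE 0.28). The desmosome genes Dsp and Pkp1 rose, Dsp from 2.71 and 1.25 to 18.2 and 24.9 CPM (log2 fold change 3.45, SE 0.35) and Pkp1 from 0.193 and 0.477 to 3.76 and 4.54 CPM (log2 fold change 3.57, SE 0.36). Anxa8, an annexin, rose from 9.48 and 8.0 to 94.5 and 131 CPM (log2 fold change 3.69, SE 0.18), and it was the 1 raised member of 9 annexin genes. Fam110c rose from 0.387 and 0.537 to 4.53 and 5.88 CPM, the forkhead factor gene Foxq1 from 1.16 and 0.418 to 6.41 and 10.2 CPM and D430036J16Rik from 0.129 and 0.537 to 4.53 and 4.03 CPM. The last is annotated as antisense, and the library was not stranded. Cldn11, a tight junction protein of meninges and oligodendrocytes, fell by 3.33 (SE 0.89), at 35.9 and 59.9 CPM in control and 9.07 and 0 CPM after TGF-β, and was not called without WT TGF-β replicate 2 (log2 fold change -2.42, adjusted p 0.058 in edgeR) or in DESeq2 (adjusted p 0.262). Disp3 fell from 16.4 and 20.7 to 4.53 and 1.28 CPM, Fgfbp1, a carrier of FGFs, from 4.26 and 6.98 to 1.22 and 0.831 CPM and Enpep, an angiotensin-cleaving peptidase, from 8.38 and 11.2 to 2.43 and 2.24 CPM. Serpind1, heparin cofactor II, fell from 9.09 and 9.73 to 2.05 and 1.98 CPM (log2 fold change -2.22, SE 0.17). Tmem47 and the protease gene Scpep1 lost more CPM from a higher level, Tmem47 from 693 and 752 to 462 and 486 CPM and Scpep1 from 445 and 639.9 to 322 and 287 CPM.

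The replicates of a group disagreed for a set of genes. With 1 added to CPM, 12 genes were at least 2-fold apart between replicates in both WT groups, and all 12 were higher in control replicate 1 and TGF-β replicate 2. They were Ngfr, Card10, Zim1, Wnt9a, Acan, Stra6, Galnt14, Sfn, Tinagl1, Crispld2, Meox1 and Gbp4, chosen after their values were seen. Of the 12, 3 rose and none fell. Whether the 2 cultures of a group differed in cell makeup was not tested.

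**Figure D5:**
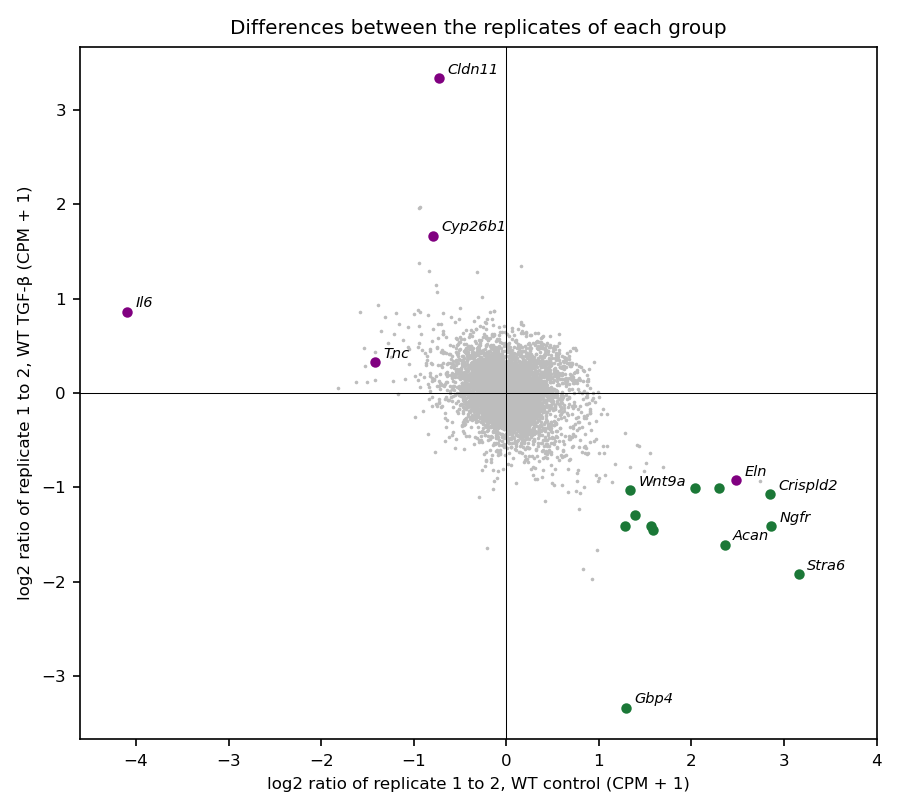
Log2 ratio of replicate 1 to replicate 2, with 1 added to CPM, in WT control (x axis) and WT TGF-β (y axis), in grey for genes with a mean of at least 1 CPM, green for the 12 genes at least 2-fold apart in both groups and purple for 5 genes named in the text. The 12 genes lie at the lower right, while Il6 and Tnc were higher in control replicate 2 and Cldn11 and Cyp26b1 in TGF-β replicate 1.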

How the data were processed

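Unstranded RNA-seq libraries of the 8 cultures were aligned by the authors with STAR in the VIPER pipeline to mm10. The authors deposited raw counts per gene, and the program and annotation used for counting are not given in the sources used here. A table of Cufflinks values, also deposited by the authors, was taken as FPKM because the sources do not state its unit. Tables that hold the authors' log2 fold changes and p-values from DESeq were not used.

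Genes were filtered with filterByExpr, scaled by TMM and fitted with edgeR 4.0.16 (R 4.3.3) on all 8 libraries, as 4 group means with 4 residual degrees of freedom. WT TGF-β and WT control libraries, 2 of each, were compared by the quasi-likelihood test with Benjamini-Hochberg adjustment over 13509 genes, at a log2 fold change of 0.6 and an adjusted p of 0.05. The fit was tested on simulated counts. CPM values have no prior count. Fold changes came from edgeR's fit to the counts. A prior count of 2 was used only in log2 CPM, for the principal components and the correlations of deviations. The members and gene lists were chosen with earlier results of these data known.

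Named genes were the 12 with the largest fold in each direction with a mean of at least 2 CPM, the 6 with the largest difference in CPM, up to 4 called members of each list with the smallest p, the members a list is best known by, and Rgcc. Other named genes were chosen after their values were seen, and some genes that the rule names are not reported here. Where a gene overlaps another or an antisense gene, reads cannot be told apart without strand. Replicate numbers 1 and 2 recur in all groups, but nothing says that they pair cultures, so the model has no block. Alternatives were DESeq2 1.42.0, limma-voom (limma 3.58.1), other filters and scalings, the WT libraries alone, a replicate block and leaving out each WT library. Promoters and coordinates are from RefSeq and the annotation of GRCm38.p6, and 10578 of the tested genes had a promoter. Counting error is not the only error in CPM, since reads carry no molecular identifiers.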

Additional observations from a re-analysis of the deposited data

How the results depend on the processing

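Counts of called genes kept their balance under most settings. For raised and lowered genes respectively, they were 915 and 611 with DESeq2 on all 8 libraries, 887 and 539 with DESeq2 on the WT libraries alone, 1037 and 747 with limma-voom, 926 and 681 with edgeR on the WT libraries alone, 1059 and 762 without a filter, 904 and 760 with at least 10 counts in every library, 1028 and 778 with RLE scaling and 857 and 1055 with upper quartile scaling. Leaving out 1 WT library gave 714 to 1094 raised and 486 to 789 lowered genes, and the fewest of both came without WT TGF-β replicate 2. The set of 763 lowered genes shared 425 with that fit and 591 with DESeq2 on all 8 libraries, and the 1043 raised genes shared 689 and 899. The replicate block, which pairs libraries by number, gave 957 raised and 659 lowered genes. The deviations of same-numbered WT libraries correlated at -0.343 and those of same-numbered WT and KO libraries at 0.491 (control) and 0.253 (TGF-β), and a crossed pairing of the numbers, added after seeing the data, gave 1167 and 938.

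All 234 called genes named in the text kept their direction under the 14 alternatives, and 185 of them stayed past the threshold in each alternative that tested them. With all WT libraries kept, calls were lost for 8 genes in DESeq2 on all 8 libraries (Ankrd1, Ccdc153, Cdkn2a, Cldn11, Cxcl14, Il11, Rgcc and Wnt9a), for 4 in limma-voom (Gjb2, Mmp12, Psmb9 and Snai2), for 6 with the replicate block and for 9 with upper quartile scaling, which took B3gnt5, Epha7, Gli2, Hk2, Prrx1, Ptgs1, Rdh10 and Srebf1 under the fold limit. Leaving out control replicate 1, control replicate 2, TGF-β replicate 1 or TGF-β replicate 2 lost 19, 26, 26 and 27 calls, with Foxj1 at -0.58 without control replicate 2, Slc1a2 at -0.57 without TGF-β replicate 1 and Tnc between 1.66 and 2.34 without control replicate 1 or either TGF-β library. Of 63 named genes that were not called, Mki67, Myc, Top2a, Fos, Ncan, Phgdh and Sox10 changed sign in some fit. Mki67 was at -0.066 with upper quartile scaling, and in fits without 1 library Mki67 lay between -0.12 and 0.13, Myc between -0.17 and 0.069, Top2a between -0.11 and 0.019, Fos between -0.8 and 0.043, Ncan between -0.055 and 0.43, Phgdh between -0.11 and 0.056 and Sox10 between -0.068 and 2.31. The cause of these changes was not tested. Of the 1932 counts of list members under an alternative, 1766 were within 1.5 times the reported count.

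With 2 libraries in a group, 1 culture can decide a value, and lowly expressed genes such as Fgf21 rest on few counts. Upper quartile scaling moved the median of all genes by less than 0.1 on the log2 scale.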

Other observations

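Single genes of several smaller lists also passed the threshold, in lists whose share of calls was in some cases near the 13.4% of all genes tested. In the FGF list, 4 of 24 genes rose and 2 fell. Fgf2, the basic fibroblast growth factor, rose from 13.5 and 12.6 to 22.7 and 25.7 CPM (log2 fold change 0.89, SE 0.11) and Fgf9 from 1.81 and 2.63 to 5.47 and 6.84 CPM. Fgf1, the acidic form, fell from 16.4 and 14.6 to 7.74 and 11.3 CPM (log2 fold change -0.71, SE 0.21). The calls of Fgf9 and Fgf1 were lost in some fits without 1 WT library. Fgf1 was at -0.45 without TGF-β replicate 1 and at -0.82 without control replicate 2, and Fgf9 at 1.22 without control replicate 1. The phosphatase gene Dusp4, a feedback inhibitor of ERK, rose from 6.96 and 8.48 to 15.8 and 15.7 CPM (log2 fold change 1.03, SE 0.14), whereas its relative Dusp6 was not called (log2 0.31). Of the 5 endothelin genes Edn1, a vasoconstrictor that astrocytes release after injury, rose from 1.93 and 1.91 to 4.75 and 5.24 CPM (log2 fold change 1.37, SE 0.18), and the receptor gene Ednrb was under the fold limit (log2 -0.48). In the Hedgehog list Gli2, a transcription factor of the pathway, rose from 14 and 15 to 21.2 and 23.5 CPM, the 1 call of 9, and Edn1 was the 1 call of its list.

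Prostaglandin genes rose in 4 of 12 cases and none fell, or 2 without control replicate 1 or TGF-β replicate 1. Both cyclooxygenases did, Ptgs1 from 16.6 and 18.4 to 31.5 and 24.1 CPM and Ptgs2 from 95.8 and 102 to 253 and 185 CPM, and so did the prostacyclin synthase gene Ptgis, from 19.4 and 26.5 to 43.3 and 53.4 CPM (log2 fold change 1.07, SE 0.15). Ptgds, the prostaglandin D synthase, stood at 60.6 and 70.1 CPM in control and 11.9 and 39.2 CPM after TGF-β and was not called (adjusted p 0.124 in edgeR), with the TGF-β replicates far apart. Among the heparan sulfate proteoglycans of the cell surface, Gpc1 rose from 95.5 and 94.8 to 199 and 209 CPM (log2 fold change 1.1, SE 0.096) and Sdc3 from 275 and 226 to 434 and 454 CPM, and Gpc3 fell from 41.3 and 51.4 to 27.1 and 30.9 CPM (log2 fold change -0.68, SE 0.14). Of the 7 filament genes, Lmna, which encodes lamin A, rose from 262 and 227 to 396 and 449 CPM (log2 fold change 0.79, SE 0.11).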
